A study of Homo sapiens with 6 samples.

Results

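The 36 genes described here act in the DNA damage response and in DNA repair. Members were taken by gene name, as well-known genes of these pathways, with no threshold on a measured value. All 36 were found among the 32917 genes of the authors' expression table. They fall into 6 roles, from checkpoint kinases to excision repair. The data are maps of N6-methyladenosine (m6A), a methyl mark inside messenger RNA, made by MeRIP-seq. In this assay an m6A antibody captures fragments of poly(A) RNA (the IP library), which are read against fragments that were not selected (the input library). The cells were Kasumi-1, an established line from an acute myeloid leukaemia that carries the RUNX1-RUNX1T1 fusion, with a genotype labelled WT. The combined treatment was 100 uM CoCl2 with 10 nM echinomycin for 24 h, and it has 3 input and 3 IP libraries, which the labels call biological replicates. It was set against CoCl2 alone in a table of the authors' own comparison, so CoCl2 was given on both sides of it. The sources used here give no dose or time for CoCl2 alone. CoCl2 mimics hypoxia by stabilising the hypoxia-inducible factors, and echinomycin is a DNA bis-intercalator that keeps these factors off their binding sites. All values come from one cell line in culture.

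The DNA damage response starts when sensor complexes bind a break or a stalled replication fork. The kinases ATM, ATR and DNA-PK then phosphorylate histone H2AX and checkpoint proteins, which halts the cell cycle and recruits repair factors. Breaks are joined directly by end joining or copied from the sister chromatid by homologous recombination, cross-links need the Fanconi anaemia pathway, and damage to a single strand or base goes through excision repair. On messenger RNA, m6A is known to lie mostly in long internal exons and near stop codons, where reader proteins bind it and alter the stability, splicing or translation of the transcript.

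A listed peak is a region of the combined treatment where the authors found IP reads enriched over input, and its fold enrichment is the authors' own value. A tested peak is a region of the authors' comparison with CoCl2. Each has 1 value and no replicate values, so the authors' FDR is the test of every change below, and the sources used here do not say how far it covers the spread of the replicates. A tested peak was called higher or lower at an authors' FDR under 0.05, and FDR is printed as its log10. Higher means more enrichment after the combined treatment than after CoCl2. This direction was read from the table's name, which puts the combined treatment first, and the labels do not state it. Input RNA of cells given CoCl2 alone was not analysed here, so no change in RNA level is given. Coordinates are the authors', from a genome build that the sources used here do not name. The libraries were strand-marked, but whether counting used strand is not stated, so a gene and its antisense partner cannot be told apart. All 8 blast markers were at 1 FPKM or more (summed 172 to 191 FPKM over the 3 inputs), as were 2 of 4 B cell markers (summed 7.65 to 9.06), 1 of 4 T cell markers (30.9 to 35.3, nearly all CD3D, with CD2 listed at 0) and 1 of 3 epithelial markers (8.95 to 9.68, nearly all EPCAM). None of 3 fibroblast markers (summed 0.674 to 0.734) reached 1 FPKM. The part of other cell types in the results was not tested, and in bulk RNA fewer cells and less RNA per cell cannot be told apart.

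Every one of the 36 genes was expressed after the combined treatment, at a mean input level of 1 FPKM or more. FPKM counts fragments relative to transcript length and to all mapped fragments, so levels can be compared between genes. The median of their means was 8.49 FPKM, against 5.36 FPKM over the 12612 genes at 1 FPKM or more. Of the 36 genes, 24 lay above that median of expressed genes, 8 above their upper quartile of 12.4 FPKM and 5 below their lower quartile of 2.42 FPKM. The replicates were close: the coefficient of variation ran over 0.508% for PARP1 to 14.0% for FANCA, with a median of 5.71%.

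H2AX and XRCC6 stood above the rest. H2AX, the histone variant phosphorylated around breaks, had 59.4, 65.2 and 63.1 FPKM in the 3 inputs. XRCC6, which encodes the Ku70 subunit of the end-binding Ku complex, had 59.7, 59.8 and 61.7 FPKM. Their values overlapped, so they could not be ordered. The single-strand binding subunit RPA2 followed at 32.1, 33.3 and 32.7 FPKM, and PARP1, which marks strand breaks with poly(ADP-ribose), at 21.8, 22.0 and 21.9 FPKM. Below PARP1 came XRCC5, ATRIP, RNF168 and XRCC1, with means of 18.9, 17.7, 16.4 and 14.9 FPKM, and each overlapped its neighbour in this order. At the low end, the kinase ATR had 1.72, 1.65 and 1.49 FPKM and the recombination gene RAD51D had 1.21, 1.49 and 1.34 FPKM, with no overlap between them. Of the 35 neighbouring pairs in the order of levels, 12 had replicate values that did not overlap.

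**Figure D1:**
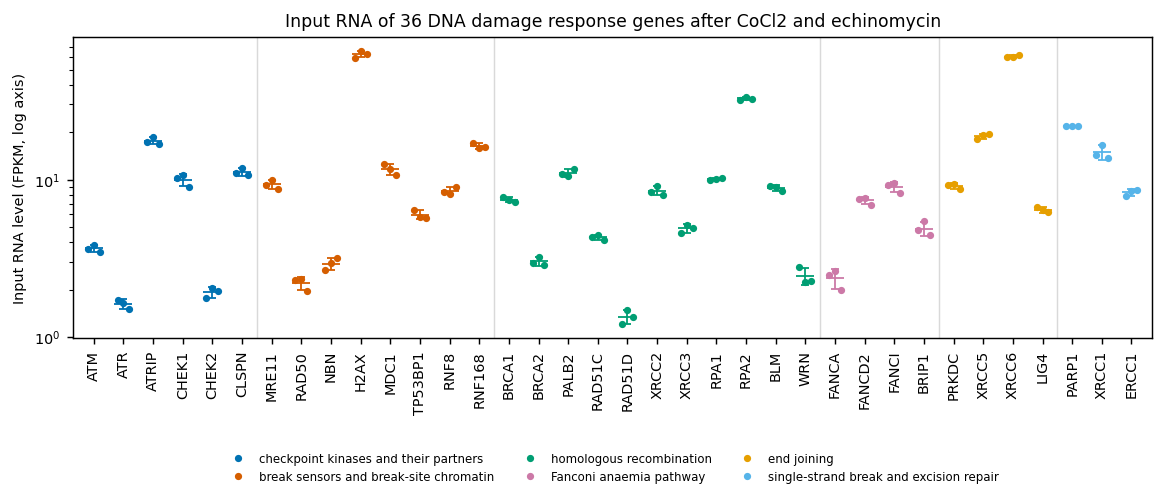
Input RNA level (FPKM, log axis) of the 36 genes after the combined treatment, grouped by role. Points are the 3 input libraries and bars are mean and SD. H2AX and XRCC6 lie highest, with means of 62.6 and 60.4 FPKM, and ATR and RAD51D lowest, with 1.62 and 1.35 FPKM.

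Most of these genes had m6A peaks. In the authors' peak list, 33 of the 36 genes (91.7%) had at least 1 peak, against 79.7% of the 12612 expressed genes. These shares were not matched for RNA level, whose median was 8.49 FPKM for the 36 genes and 5.36 FPKM for the expressed genes. All 33 had a peak that passed the authors' FDR of 0.05. The 3 with none were FANCI, the kinase CHEK2 and the recombination gene XRCC3. The genes held 127 of the 42634 listed peaks, of which 118 passed the FDR of 0.05. These 127 peaks covered 110 distinct stretches, since the list holds overlapping peaks. BRCA1 had 15, RAD50 had 11 and TP53BP1 had 10, while 9 genes had 1 each. A count of peaks is not a count of sites on the gene's own RNA, as 51 of the 127 overlapped the span of another gene and 14 were annotated to another gene's exon.

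The median enrichment of these peaks lay below that of all listed peaks, and that of the best peak per gene lay near the background. The median fold enrichment was 3.53 over the 127 peaks, against 4.53 over all listed peaks. The median of each gene's highest value was 6.87, against 6.28 for expressed genes with a peak. These highest values were not matched for the number of listed peaks per gene. MDC1, the scaffold that reads phosphorylated H2AX, had the highest single value, 16.3-fold. It lay in a 150-base peak labelled 5' UTR at 6:30717298-30717447, with a log10 FDR of -6.94. H2AX reached 15.7-fold and 12.7-fold in a pair of peaks labelled 3' UTR. ERCC1, a subunit of the excision repair nuclease, reached 13.2-fold, but inside the span of FOSB, an immediate early gene (3.87 ± 0.33 FPKM, SD, n = 3). RPA1 reached 11.2-fold (log10 FDR -3.45), BRCA2 9.55-fold (-149), the fork protein CLSPN 9.31-fold (-72.5) and the ligase LIG4 9.10-fold (-265). The MDC1 and RPA1 values thus had much weaker support than the other high values named here. At the other end, the best peaks of XRCC6, FANCD2 and XRCC5 were 1.25-fold, 1.46-fold and 1.82-fold.

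Most of the peaks were labelled 3' UTR, 72 of 127 (56.7%), against 42.5% of all listed peaks. Peaks labelled exon made up 24.4%, against 34.3% of all, and those labelled 5' UTR made up 18.9%, against 23.1%. The median fold enrichment was 3.20 in 3' UTR, 3.35 in exon and 4.93 in 5' UTR peaks of these genes, against 4.40, 4.66 and 4.42 over all listed peaks. The labels name one feature per peak and do not bound it, as with the tested LIG4 peak labelled 5' UTR, which had 4 blocks with 2895 exonic bases.

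**Figure D2:**
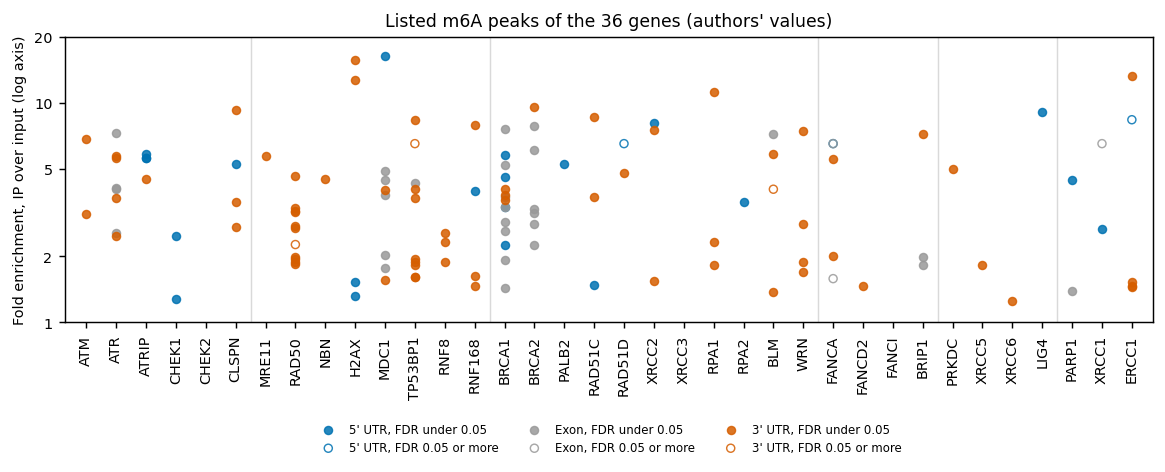
Authors' fold enrichment of IP over input (log axis) for the listed peaks of the 36 genes after the combined treatment, 1 point per peak, coloured by region label and open where the authors' FDR was 0.05 or more. MDC1 and H2AX hold the highest points, and FANCI, CHEK2 and XRCC3 have none.

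In the comparison with CoCl2, nearly every gene with a tested peak had a called one, and lower calls outnumbered higher calls. The authors' deposited table held 70 tested peaks, in 60 distinct stretches, for 27 of the 36 genes (75%, against 63.3% of expressed genes). The other 9 were CHEK1, CHEK2, NBN, FANCA, FANCD2, FANCI, XRCC6, PARP1 and XRCC1. Of the 27, 26 (96.3%) had at least 1 called peak in the authors' deposited table, against 75.3% of all genes with a tested peak. RPA2 alone had none. These shares were not matched for the number of tested peaks per gene. Of the 27 genes, 17 had 2 or more tested peaks, against 5012 of all 11315 genes with a tested peak. By peak, 21 of 70 (30.0%) were called higher in the authors' deposited table and 33 (47.1%) lower, against 23.1% and 45.8% of all tested peaks. A further 16 were not called.

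Taking for each gene its peak with the lowest authors' p, 9 of 27 (33.3%) were higher and 17 (63.0%) lower in the authors' deposited table, against 22.6% and 52.7% of all genes. The median log2 fold change at that peak was -0.46 for the 27 genes and -0.50 for all genes with a tested peak in the authors' deposited table. These medians were close to each other. The result depends on the peak that stands for a gene. With the mean over each gene's peaks the median was -0.083 in the authors' deposited table. The mean has no FDR, so each gene with a called peak was counted by its sign, 12 positive and 14 negative. With the peak of highest absolute change the median was -0.31, with 11 called higher and 14 called lower in the authors' deposited table. Changes of 2-fold or more were called for 18 of the 70 peaks (25.7%) in the authors' deposited table, 9 in each direction, against 17.2% of all tested peaks. Of these 18, 7 lay in no other gene's span. The 18 also include overlapping pairs over one stretch, on ATR, ATRIP, RAD50, H2AX and ERCC1.

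Called peaks of both directions on one gene were found for CLSPN, TP53BP1, BRCA1, RPA1 and BRIP1, 5 of 27 genes (18.5%), against 10.1% of all genes in the authors' deposited table. For BRCA1, all lower called peaks carry exons of its neighbours NBR2 or AC060780. Among genes with at least 2 tested peaks, the count was 5 of 17 (29.4%), against 22.9% of 5012 genes. A further 7 genes had only higher called peaks and 14 only lower ones.

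**Figure D3:**
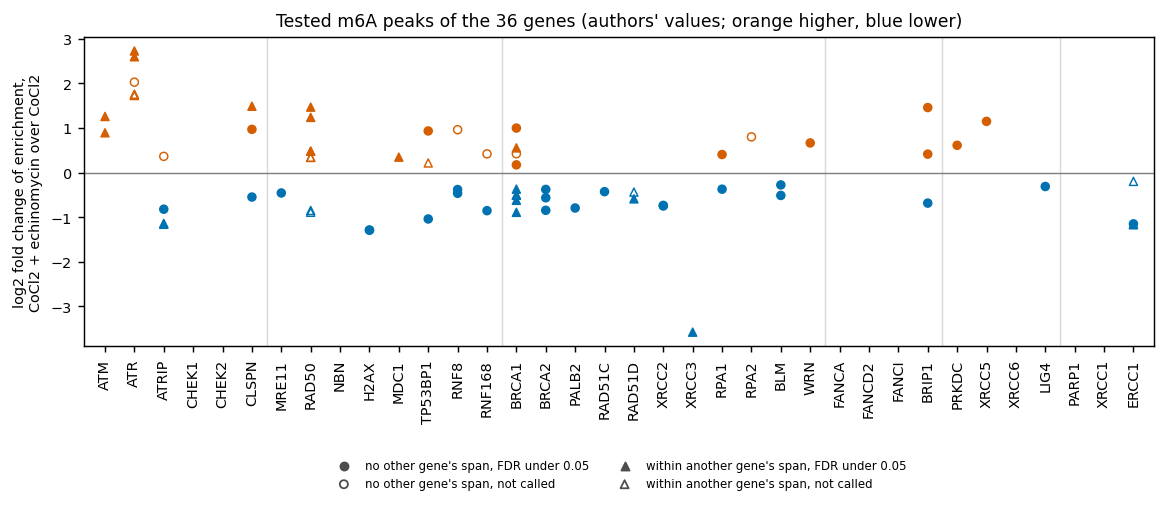
Authors' log2 fold change of enrichment, combined treatment over CoCl2, for the 70 tested peaks of the 36 genes grouped by role, from the authors' deposited table. Filled symbols are called at an FDR under 0.05, and triangles overlap another gene's span. Genes with no symbol had no tested peak. ATR and XRCC3 hold the highest and the lowest value.

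**Figure D4:**
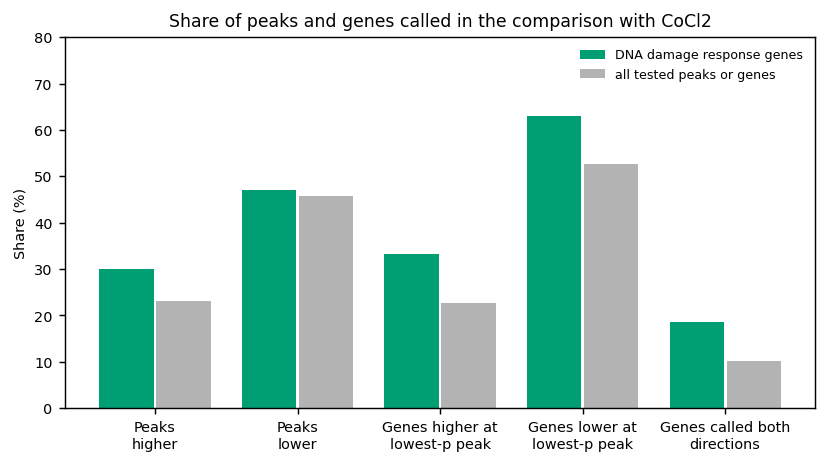
Share of peaks or genes called in the authors' deposited table, for the DNA damage response genes (of 70 peaks or 27 genes) and for all tested peaks or genes. No error bars are drawn because the table has no replicate values. Lower calls exceed higher calls in both sets.

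Peaks labelled 5' UTR were mostly lower, while those labelled 3' UTR were split between the directions. Of 13 tested peaks labelled 5' UTR, in 11 stretches, 10 were lower and 2 higher in the authors' deposited table, and the 10 came from 8 genes. Over all tested peaks with that label, 43.3% were lower and 28.1% higher. Both higher ones were annotated to BRCA1, but most of one, 17:43170168-43171037, lies outside the BRCA1 span, which ends at 43170245. Of 37 peaks labelled 3' UTR, in 31 stretches, 14 were higher and 13 lower in the authors' deposited table, against 22.9% and 53.7% of all peaks with that label. The difference between the labels was not tested, since peaks of one gene are not independent. The labels do not bound the peaks, so these counts do not compare regions of a transcript. Among lower peaks labelled 5' UTR, one of H2AX spans the whole gene and one of XRCC2 has 3609 exonic bases. The ATRIP pair with that label lies at the gene's end, in the TREX1 span. The RAD51C peak labelled 3' UTR lies near that gene's start.

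Another gene's span is one limit on these counts. Of the 70 tested peaks, 32 overlapped one, 22 of them called. In the 38 peaks that did not, on 22 genes, 10 were higher, 22 lower and 6 not called in the authors' deposited table, against 23.1% higher and 45.8% lower of all tested peaks, with or without such an overlap. At the lowest-p peak this left 5 genes higher, against 9 over all peaks, and 15 lower, against 17.

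The checkpoint kinases sense damage and stop the cycle. Of 6 genes in this group, 4 had a tested peak, and at the lowest-p peak 2 were higher and 2 lower in the authors' deposited table, against 22.6% higher and 52.7% lower of all genes. The counts of each role are small, and none was tested against that background. CHEK1, the kinase that ATR activates, had 10.2, 10.7 and 8.97 FPKM and listed peaks of 2.46-fold and 1.28-fold, but no tested peak. CHEK2, its counterpart downstream of ATM, had 1.76, 2.06 and 1.96 FPKM and neither kind of peak.

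ATM, the kinase activated by double-strand breaks, had 3.62, 3.84 and 3.49 FPKM. It had 2 tested peaks, both labelled 3' UTR, and both were higher in the authors' deposited table: a log2 fold change of 0.89 at 11:108365097-108365683 (log10 FDR -14.7) and 1.26 at 11:108368772-108369072 (log10 FDR -5.13). Both lie within the span of the antisense gene C11orf65, which had 0.21 ± 0.016 FPKM (SD, n = 3). ATR, which answers stalled forks, had 6 tested peaks, and 2 overlapping ones were higher in the authors' deposited table, with log2 fold changes of 2.73 (3:142451348-142451556, log10 FDR -3.65) and 2.60 (log10 FDR -3.08). These were the highest values of the 70 peaks, and both carry the exon of an antisense transcript, AC109992, at 0.25 ± 0.0083 FPKM (SD, n = 3). The ATR peak on ATR's own exon had a log2 fold change of 2.03 in the authors' deposited table and was not called (log10 FDR -1.12).

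ATRIP, the partner that brings ATR to single-stranded DNA, had 17.4, 18.7 and 16.9 FPKM. On its own span it was lower at 3:48459833-48460712, with a log2 fold change of -0.82 in the authors' deposited table (log10 FDR -16.7). A stretch at its end, 3:48467025-48467645, had -1.16 (log10 FDR -17.5) in the authors' deposited table, but lies in the span of TREX1, an exonuclease gene at 0.10 ± 0.066 FPKM (SD, n = 3). TREX1 lies wholly within the authors' ATRIP span on the same strand. How reads were divided between these genes is not stated, so their levels cannot be told apart. An ATRIP peak labelled 5' UTR had 0.37 and was not called in the authors' deposited table (log10 FDR -1.16). CLSPN, the claspin adaptor between ATR and CHEK1, had 11.1, 11.9 and 10.7 FPKM and called peaks of both directions. Across 11 blocks at its 5' side (1:35749699-35769978) it was lower, at -0.55 (log10 FDR -17.9), and in a peak labelled 3' UTR (1:35736294-35736594) higher, at 0.97 (log10 FDR -4.36), in the authors' deposited table. Another called CLSPN peak, at 1.49 (log10 FDR -9.20) in the authors' deposited table, carries an exon of AL354864, at 0.29 ± 0.26 FPKM (SD, n = 3).

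The break sensors and the chromatin factors that gather at breaks were the group with the call of lowest FDR, though not of the largest fold change. Of 8 genes, 7 had a tested peak, and at the lowest-p peak 5 were lower and 2 higher in the authors' deposited table, against 52.7% lower and 22.6% higher of all genes. Of their 10 tested peaks in no other gene's span, 7 were lower, 1 higher and 2 not called. Over all tested peaks, with or without such an overlap, 45.8% were lower and 23.1% higher. H2AX is a short gene, and a tested peak of 1 block spanned all of it, 11:119093854-119095467. Its log2 fold change was -1.29 in the authors' deposited table, with a log10 FDR of -434, the lowest of the 70 peaks. A second tested peak over the same stretch, with 2 blocks and 1373 exonic bases, gave the same value. The next lowest log10 FDR of this group was -32.7, for TP53BP1, weaker than the -41.2 of XRCC2 in homologous recombination.

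The ubiquitin ligases that act after H2AX also had lower peaks. RNF168, which ubiquitylates histone H2A, had 17.1, 15.9 and 16.2 FPKM and a log2 fold change of -0.85 (3:196483819-196503768, log10 FDR -31.2) in the authors' deposited table. RNF8, which acts before RNF168, had 8.36, 8.14 and 8.99 FPKM and called peaks at -0.38 (log10 FDR -8.57) and -0.46 (log10 FDR -2.40) in the authors' deposited table. The second of these matched no listed peak. Each of the 2 genes also had a peak near its 3' end that was not called, with a log2 fold change of 0.42 for RNF168 and 0.96 for RNF8 in the authors' deposited table. TP53BP1, which binds ubiquitylated chromatin and favours end joining, had 6.43, 5.82 and 5.72 FPKM. It was lower in an internal exon, at -1.04 (15:43447388-43456693, log10 FDR -32.7), and higher in a 61-base peak labelled 3' UTR, at 0.94 (log10 FDR -1.32), in the authors' deposited table. The higher call lies just inside the FDR threshold.

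The MRN complex, which binds the broken end, was split. MRE11, its nuclease, had 9.29, 9.93 and 8.69 FPKM and a lower peak at its 3' end, at -0.46 (11:94415570-94416259, log10 FDR -4.21) in the authors' deposited table. RAD50, its ATPase, had 2.31, 2.33 and 1.96 FPKM and 8 tested peaks in 4 stretches, all within the span of AC116366, at 0.22 ± 0.086 FPKM (SD, n = 3). Of these 8, 4 were higher in the authors' deposited table, as overlapping pairs over shared stretches, up to 1.47 (log10 FDR -8.43). None of the 8 was called lower. NBN, which links the complex to ATM, had 2.66, 2.94 and 3.16 FPKM, 1 listed peak of 4.48-fold and no tested peak. MDC1 had 12.6, 11.6 and 10.7 FPKM. Its listed peak of highest fold enrichment was not among the tested ones. Its one tested peak, which overlaps MDC1-AS1 (0.29 ± 0.11 FPKM, SD, n = 3), was higher at 0.35 in the authors' deposited table (log10 FDR -2.88).

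Homologous recombination was the largest group. All 11 genes had a tested peak, and at the lowest-p peak 7 were lower, 3 higher and 1 not called in the authors' deposited table, with a median log2 fold change of -0.51. Of all genes 52.7% were lower and 22.6% higher, and their median was -0.50 in the authors' deposited table, close to that of the group. In no other gene's span, 10 peaks were lower, 4 higher and 2 not called. Over all tested peaks, with or without such an overlap, 45.8% were lower and 23.1% higher. BRCA2, PALB2, XRCC2, RAD51C and BLM had only lower calls in no other gene's span.

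BRCA1, the ubiquitin ligase that directs breaks to recombination, had 7.74, 7.44 and 7.16 FPKM and 9 tested peaks that divided by position. On its own span it was higher at 17:43045462-43047691, labelled 3' UTR, with a log2 fold change of 1.0 (log10 FDR -14.7), and over the 2395 bases of 17:43092368-43094762, with 0.17 (log10 FDR -2.47), in the authors' deposited table. A peak at 17:43170168-43171037, where NBR1 (15.4 ± 0.11 FPKM, SD, n = 3) and AC060780 also lie, was higher at 0.56 (log10 FDR -4.06) in the authors' deposited table. Most of that peak lies outside the BRCA1 span, which ends at 43170245. All 5 lower peaks carry exons of neighbours: one of NBR2 (12.1 ± 0.87 FPKM, SD, n = 3) at -0.89, and 4 of AC060780 (4.82 ± 0.18 FPKM, SD, n = 3) between -0.62 and -0.37, in the authors' deposited table. Both neighbours overlap the authors' BRCA1 gene span, and the NBR2 level was above that of BRCA1. On the peaks outside them, BRCA1 had no lower call.

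BRCA2, a mediator of homologous recombination, had 2.97, 3.23 and 2.88 FPKM and 3 lower peaks in the authors' deposited table, at -0.85 (13:32332725-32336382, log10 FDR -4.93), -0.57 (13:32336741-32337401, log10 FDR -2.49) and -0.38 (13:32396962-32398889, log10 FDR -2.18). PALB2, the bridge between BRCA1 and BRCA2, had 10.8, 10.5 and 11.7 FPKM. It was lower at -0.79 over 6 blocks and 2598 exonic bases (16:23629243-23638557, log10 FDR -40.6) in the authors' deposited table. Both of these BRCA1 partners had only lower calls, on peaks that overlap no other gene.

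Of XRCC2, XRCC3, RAD51C and RAD51D, which also act in strand exchange, XRCC2 had the call with the lowest FDR. It had 8.37, 9.08 and 8.00 FPKM, and its peaks were lower at -0.75 (7:152645969-152676111, 3609 exonic bases, log10 FDR -41.2) and -0.73 (log10 FDR -1.55) in the authors' deposited table. RAD51C, at 4.31, 4.44 and 4.13 FPKM, was lower at -0.43 (log10 FDR -2.09) in the authors' deposited table. RAD51D was lower at -0.59 (log10 FDR -4.05) in the authors' deposited table, in a stretch within the span of AC004223 (listed at 0, 0.0064 and 0.0086 FPKM). XRCC3 had 4.58, 5.18 and 4.95 FPKM and the lowest value of the 70 peaks, -3.58 at 14:103708852-103708972, with a log10 FDR of -1.77 in the authors' deposited table. This 121-base peak lies in the span of KLC1, a kinesin gene at 4.18 ± 0.31 FPKM (SD, n = 3), and matched no listed peak.

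The remaining recombination genes bind or unwind DNA. RPA1, the large subunit of the single-strand binding complex, had 9.88, 10.1 and 10.2 FPKM. Its neighbouring peaks labelled 3' UTR were called in opposite directions in the authors' deposited table, at 0.41 (17:1897098-1897366, log10 FDR -4.94) and -0.37 (17:1897724-1897993, log10 FDR -1.48). RPA2 had a 60-base peak at 0.80 in the authors' deposited table that was not called (log10 FDR -0.438). BLM, the helicase that dissolves recombination intermediates, had 9.15, 9.0 and 8.42 FPKM and lower peaks at -0.51 (log10 FDR -9.38) and -0.28 (log10 FDR -2.24) in the authors' deposited table. WRN, a related helicase with an exonuclease, had 2.79, 2.25 and 2.26 FPKM and was higher at 0.67 in the authors' deposited table (log10 FDR -1.38).

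The Fanconi anaemia genes act in the repair of cross-links between DNA strands, and they gave few changes to read. FANCA, a subunit of the core ubiquitin ligase, had 2.46, 2.63 and 1.99 FPKM and listed peaks of up to 6.52-fold, although the 6.52-fold ones did not pass the authors' FDR of 0.05. FANCD2 and FANCI, which that ligase modifies as a pair, averaged 7.38 ± 0.41 and 9.0 ± 0.66 FPKM (SD, n = 3). None of these 3 had a tested peak. BRIP1, a helicase that binds BRCA1, had 4.77, 5.46 and 4.43 FPKM and 3 called peaks in no other gene's span. It was lower at -0.68 in a peak labelled 3' UTR (17:61683183-61684922, log10 FDR -17.9), and higher at 1.46 (17:61685940-61686090, log10 FDR -6.79) and 0.41 (log10 FDR -2.94) in exon peaks, in the authors' deposited table.

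In end joining, 3 of 4 genes had a tested peak, each a single one in no other gene's span. Of these, 2 were higher and 1 lower in the authors' deposited table, against 22.6% higher and 52.7% lower of all genes. XRCC5, the Ku80 subunit, had 18.0, 19.2 and 19.4 FPKM and was higher at 1.15 (2:216205229-216205378, log10 FDR -22.6) in the authors' deposited table, in a peak whose listed enrichment was 1.82-fold. PRKDC, the catalytic subunit of DNA-PK that Ku recruits, had 9.20, 9.42 and 8.73 FPKM and was higher at 0.61 (log10 FDR -12) in the authors' deposited table, in a peak labelled 3' UTR with a listed 5.00-fold enrichment. LIG4, which seals the joined ends, had 6.69, 6.41 and 6.18 FPKM and was lower at -0.31 (13:108208752-108218189, log10 FDR -3.80) in the authors' deposited table. Its listed enrichment of 9.10-fold was the highest of this group. XRCC6, with a listed peak of 1.25-fold, had no tested peak.

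Of the 3 genes of single-strand break and excision repair, only ERCC1 had a tested peak. PARP1 had listed peaks of 4.45-fold and 1.39-fold. XRCC1, the scaffold for single-strand break repair, had 14.4, 16.7 and 13.8 FPKM and listed peaks of 6.52-fold and 2.67-fold, of which the 6.52-fold one did not pass the authors' FDR of 0.05. ERCC1 had 7.83, 8.49 and 8.63 FPKM and 3 lower peaks in the authors' deposited table. A pair over one stretch, at -1.17 (19:45409124-45409632, log10 FDR -21.3) and -1.16 in the authors' deposited table, lies in the span of CD3EAP, a polymerase subunit gene at 0.80 ± 0.18 FPKM (SD, n = 3). The ERCC1 peak outside other spans was lower at -1.15 (19:45413559-45413649, log10 FDR -1.94) in the authors' deposited table, and matched no listed peak. The strongly enriched ERCC1 stretch in the FOSB span had -0.20 and was not called in the authors' deposited table (log10 FDR -0.936).

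A wider list of 92 other genes of these pathways had more lower than higher calls, as did all genes. Of the 92, 87 were at 1 FPKM or more, 79 of those had a listed peak, and 68 had a tested peak. At the lowest-p peak 36 of the 68 (52.9%) were lower, 19 (27.9%) higher and 13 not called in the authors' deposited table, with a median log2 fold change of -0.41. Over all genes 52.7% were lower and 22.6% higher, with a median of -0.50. Called peaks of both directions were found for 8 of the 68, against 10.1% of all genes. The list thus lay near the background.

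The higher calls with the lowest p on this list were those of TOPBP1, the activator of ATR, at 1.40 (log10 FDR -25.8), APTX, which repairs aborted ligation ends, at 0.80 (log10 FDR -17.1), HLTF, a fork remodeller, at 0.97 (log10 FDR -16.6), and RAD1, a subunit of the checkpoint clamp, at 1.23 (log10 FDR -14.8), in the authors' deposited table. APTX also had a lower called peak. The lower calls with the lowest p were those of FEN1, the flap nuclease, at -0.71 (log10 FDR -128), RMI1 and RMI2, partners of BLM, at -0.95 (log10 FDR -68.8) and -1.27 (log10 FDR -31.2), and BRCC3, a deubiquitylase of the BRCA1-A complex, at -0.73 (log10 FDR -47.9), in the authors' deposited table. The FEN1, BRCC3 and RMI2 peaks overlap the spans of FADS2, MTCP1 and AC099489. FEN1 was also the most abundant of these 8 genes, at 87.9 ± 2.94 FPKM, and RMI2 the least, at 1.55 ± 0.33 FPKM (SD, n = 3).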

How the data were processed

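MeRIP-seq of Kasumi-1 cells gave 3 IP and 3 input libraries of the combined treatment, grouped by their titles. The submitters' processing notes name fastp, HISAT2, HOMER and ChIPseeker, with no role or version. The sources used here name no peak caller, differential caller, FPKM tool, annotation or build. Per the file headers the authors' table holds FPKM per gene and input library, and its low values show no steps of whole reads, so depth is unknown. A further 6 FPKM columns were not used here. The peak list deposited by the authors holds a fold enrichment (a linear ratio), a p-value, and log10 p and FDR, treated as a score. The differential list deposited by the authors holds a log2 fold change, a p-value and a log10 FDR, also treated as a score. The sources used here do not say how replicates were combined or how input entered the fold change.

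Peaks were joined to genes by the authors' gene names, and gene backgrounds were counted by gene ID. Peaks matched where exonic blocks shared at least 1 base, and a peak overlapped another gene where its blocks reached that gene's span in the FPKM table. The counting was tested on simulated tables. No test over samples was possible for the peak lists. All 36 genes are named, and of the wider list the 4 higher and the 4 lower with the lowest authors' p. The genes and lists were chosen with earlier results of these data known. Python 3.11.15, numpy 2.4.6, pandas 2.3.3 and matplotlib 3.10.9 were used. Alternatives varied the FDR, fold, enrichment and FPKM limits, the peak that stands for a gene, overlap rules and the replicates. Peak sequences are not shown, since no genome was used here.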

Additional observations from a re-analysis of the deposited data

How the results depend on the processing

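Requiring a 2-fold change left 18 called peaks, 12 genes with a called peak, 4 genes higher and 5 lower at the lowest-p peak, against 54, 26, 9 and 17. Leaving out peaks in another gene's span, an alternative chosen after the data were seen, left 32 called peaks, 20 genes with one, 5 higher and 15 lower, and a median log2 fold change of -0.48. That median was -0.44 over peaks that overlap a listed peak, -0.31 with each gene's peak of highest absolute change (11 higher, 14 lower) and -0.083 with the mean over its peaks, against -0.46. The mean, which has no FDR, was positive for 12 and negative for 14 of the genes with a called peak. It turned the sign of CLSPN (0.64), TP53BP1 (0.04), RNF8 (0.04), BRCA1 (-0.08) and BRIP1 (0.40). Counting 1 peak per distinct stretch, also chosen after the data were seen, left 48 called. The median fold enrichment was 3.35 over peaks past the authors' FDR of 0.05, 4.47 over peaks of at least 2-fold and 3.52 without peaks annotated to another gene's exon, against 3.53. An expression limit of 5 FPKM kept 24 of the 36 genes. Leaving out each input replicate kept 36 genes expressed each time, with a median level of 8.45 to 8.56 FPKM. No paired analysis was possible because the IP libraries have no values per sample and the peak lists no replicate values. The authors' lists carry no replicate error and library depth is not known, so what depth limits could not be assessed.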

Other observations

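Of the 5357 listed peaks with an authors' FDR of 0.05 or more, 934 (17.4%) share one set of values, a fold enrichment of 6.52, a log10 p of -1.36 and a log10 FDR of -0.471. Their exonic lengths run over 57 to 1377 bases. Of these, 4 belong to the genes described here, 2 to FANCA and 1 each to RAD51D and XRCC1, and for these 3 genes 6.52-fold is the highest listed value.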
